A study of Mus musculus with 20 samples.

Results

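Insulin acts on the liver through a short chain of proteins, and the mRNAs of 10 of them were followed here across the whole series. They are the insulin receptor (Insr), its substrates Irs1 and Irs2, the regulatory and catalytic subunits of phosphoinositide 3-kinase (Pik3r1 and Pik3ca), the kinases Akt1 and Akt2, and the transcription factors Foxo1, Foxo3 and Foxo4. The genes were taken by symbol as parts of this chain, with earlier results of these data known. Of the 10 symbols, 10 were found among the 53028 Ensembl genes of the count table.

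The mice were chow-fed male C57BL/6J animals with no engineered allele. Locked nucleic acid antisense oligonucleotides (LNAs) against GFP, which mice lack, or against the small nucleolar RNA SNORA73 were given by 3 intraperitoneal injections of 3 mg/kg on alternate days, and livers were taken 2 days later. The study's design gives an age of 8 weeks at the first injection. Its methods for liver polysomes give 10 weeks for mice treated over 1 week, and there cycloheximide was injected into all mice shortly before death. Each LNA group held 5 mice (1, 2, 3, 8 and 9 for the GFP LNA, and 4, 6, 10, 11 and 12 for the SNORA73 LNA), and each mouse gave 1 library of total RNA and 1 of RNA from the pooled polysome fractions, that is, from mRNAs engaged by several ribosomes. The sample labels spell the target Snora37.

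In liver cells, insulin binding activates the receptor tyrosine kinase, which phosphorylates the Irs adaptors. These recruit phosphoinositide 3-kinase, whose lipid product activates Akt. Akt phosphorylates Foxo factors and keeps them out of the nucleus, which lowers transcription of their fasting-state targets, among them Irs2, Igfbp1, Pck1 and G6pc, while insulin raises lipogenic genes such as Srebf1. Phosphorylation and location of these proteins are not visible in mRNA levels.

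The promoter sequences of the 2 substrates are shown because Irs2 was the member with the lowest fold change and because both carry the same short element as the classical insulin-repressed gene Igfbp1. The 8 letters CAAAACAA, known from insulin response sequences that Foxo factors bind, were searched on both strands in the 250 bases before each start site in RefSeq (GRCm38.p6), and capitals mark the match (TTGTTTTG where it lies on the opposite strand). The Irs1 window is chr1:82291440-82291689 on the minus strand, with the match 33 to 26 bases before the start. The Irs2 window is chr8:11008930-11009179 on the minus strand, with the match 38 to 31 bases before the start. The Igfbp1 window is chr11:7197537-7197786 on the plus strand, with the match 108 to 101 bases before the start.
Irs1: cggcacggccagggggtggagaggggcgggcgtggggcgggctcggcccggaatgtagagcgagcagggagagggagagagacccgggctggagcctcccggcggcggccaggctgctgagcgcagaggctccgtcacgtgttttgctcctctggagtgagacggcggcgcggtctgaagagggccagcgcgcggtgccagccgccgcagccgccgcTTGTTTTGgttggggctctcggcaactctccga
Irs2: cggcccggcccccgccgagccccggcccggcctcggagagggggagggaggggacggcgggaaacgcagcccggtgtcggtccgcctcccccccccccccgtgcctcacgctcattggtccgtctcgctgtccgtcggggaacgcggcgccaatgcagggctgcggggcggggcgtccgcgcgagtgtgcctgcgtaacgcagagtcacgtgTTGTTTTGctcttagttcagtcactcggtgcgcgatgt
Igfbp1: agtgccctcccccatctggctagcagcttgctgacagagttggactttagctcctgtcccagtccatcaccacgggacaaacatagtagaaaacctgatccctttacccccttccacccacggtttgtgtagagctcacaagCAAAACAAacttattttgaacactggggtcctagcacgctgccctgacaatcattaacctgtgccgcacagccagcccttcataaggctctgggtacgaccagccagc

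A promoter entry was found for 8 of the 10 members, not for Insr and Foxo4. Irs1 and Irs2 were the members whose windows held CAAAACAA, which 727 of 32851 promoters (2.21%) held. The Foxo consensus core GTAAACA, searched on both strands, was found in 1 member, 161 to 155 bases before 1 of the 2 start sites of Akt1, and in 3.17% of all promoters. These matches are letters in a window, and no binding was measured.

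The total RNA libraries held 20005571 to 42023572 estimated counts each and the polysome libraries 14853056 to 33824824, and the SNORA73 LNA libraries had the lower scaling factors in total RNA (0.882 to 0.998 against 1.03 to 1.07), with overlap in polysome RNA (0.881 to 1.03 against 1.01 to 1.104). The knockdown could not be read, since the polyadenylated libraries held at most 2 counts of Snora73a and 4 of Snora73b. The liver label was met by hepatocyte markers, whose summed level was 32407 to 57136 CPM (counts scaled to library size) in total RNA, while the 3 muscle and 3 adipocyte markers stayed under 0.5 CPM in every library. Of 4 pancreas markers, Ins1, Ins2 and Prss2 stayed under 0.5 CPM and Cela1 was the highest. The summed level of the 4 was 24.7 to 53.4 CPM in total and 26.2 to 81.7 CPM in polysome RNA. Mouse 9 of the GFP LNA group and mouse 10 of the SNORA73 LNA group stood with the opposite group for Irs2 and Foxo3, and in total RNA had the lowest hepatocyte marker sums (32407 and 34373 CPM) and the highest sums of Kupffer cell markers (184 and 185 CPM, the other mice 98.3 to 166) and lymphocyte markers (8.11 and 7.35 CPM, the other mice 3.81 to 5.67), whose part in these results was not tested. The study left out 1 mouse per group because it did not cluster, without naming it, and fits without mice 9 and 10 came nearest to its supplementary fold changes, so values over 10 mice are given first and those over the 8 mice without this pair beside them where a call or a size differed. That exclusion was made on these data and favours separation of the groups.

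The first comparison asked whether the SNORA73 LNA changed the level of these mRNAs. Over 10 mice, none of the 10 members passed an FDR of 0.05 in edgeR in total RNA or in polysome RNA, where 0.0303% of 13195 and 0.0153% of 13060 genes passed. At an unadjusted p under 0.05, 1 member passed in total RNA (Foxo4, higher), against 8.65% of all genes, and 4 passed in polysome RNA (Insr, Pik3r1, Pik3ca and Foxo4), each higher in the SNORA73 LNA group, against 8.12% of all genes that were higher. These counts moved with the scaling. With library totals, 1 member passed in polysome RNA (Foxo4, higher) against 3.59% of all genes that were higher, and 1 in total RNA (Irs2, lower) against 14.3% that were lower. The median log2 fold change (SNORA73 over GFP LNA) of the 10 members was 0.10 in total and 0.27 in polysome RNA, beside 0.01 and -0.01 for all genes tested. The spread over the 10 mice in total RNA differed among members, with coefficients of variation of 6.82% for Akt2 and 7.11% for Insr at one end and of 22.5% for Irs1 and 40.4% for Irs2 at the other. Over 8 mice, 2 members passed in total RNA, Irs2 as lower (0.161% of all genes) and Foxo3 as higher (0.584% of all genes). In polysome RNA of the 8 mice, 0 members and 0.242% of all genes passed.

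**Figure D1:**
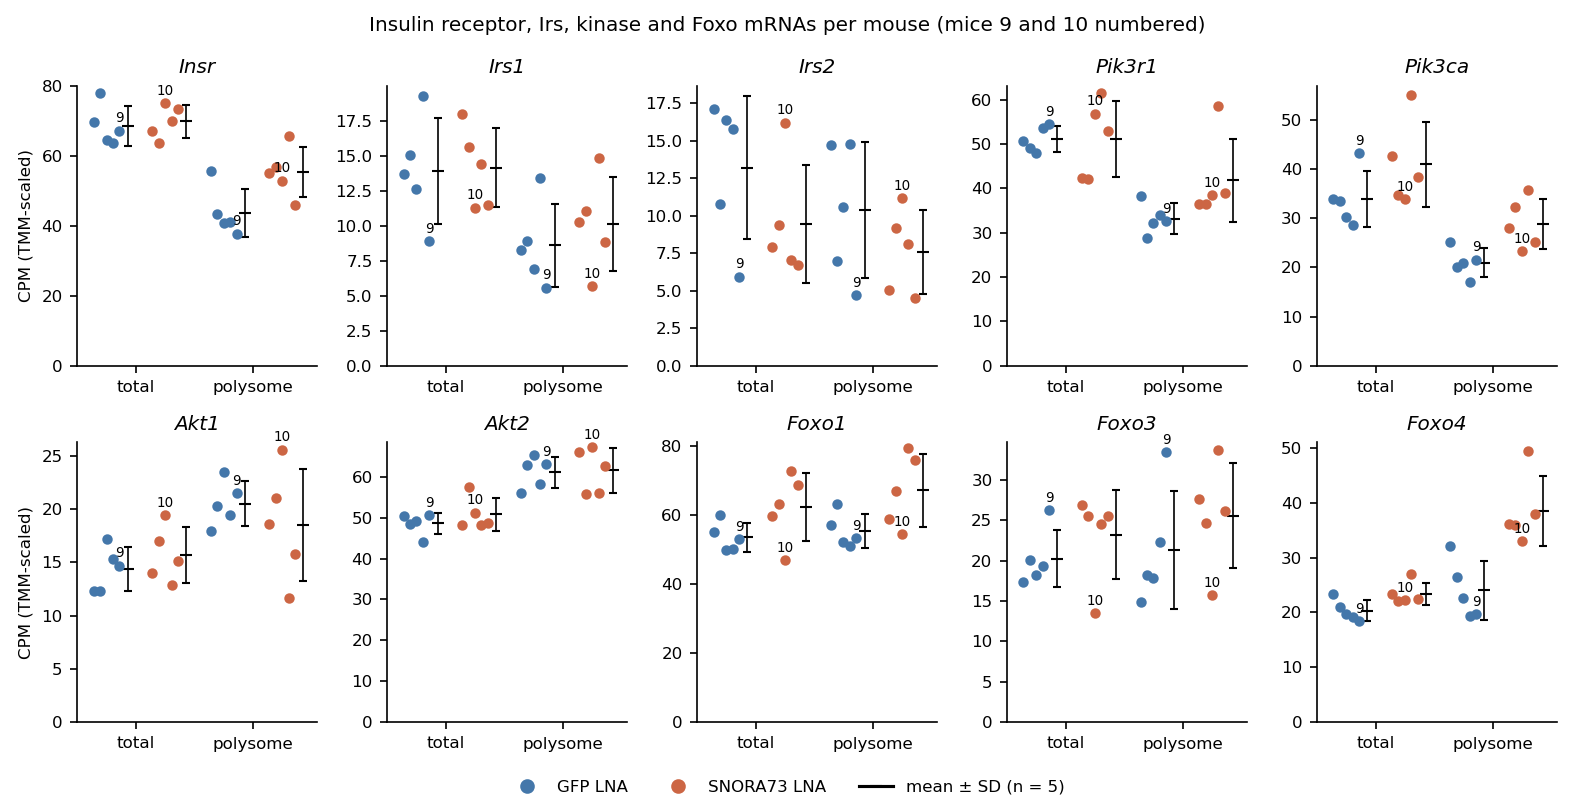
Level of each member (CPM, scaled by trimmed mean of M values, linear axis from 0) in total and polysome RNA. Each point is 1 mouse, black marks are the mean ± SD of 5 mice, and mice 9 and 10 carry their numbers. The SNORA73 LNA mice lie above all GFP LNA mice only for Foxo4 in polysome RNA, and mice 9 and 10 lie with the opposite group for Irs2 and Foxo3.

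The insulin receptor (Insr, ENSMUSG00000005534, chr8:3150922-3279649) varied little in total RNA, with a coefficient of variation of 7.11% over 10 mice. It measured 69.7, 78.0, 64.7, 63.8 and 67.3 CPM in GFP LNA mice 1, 2, 3, 8 and 9, and 67.1, 63.9, 75.1, 70.0 and 73.6 CPM in SNORA73 LNA mice 4, 6, 10, 11 and 12 (the order of mice used from here on). The groups overlapped, with a log2 fold change of 0.03 (SE 0.088, edgeR FDR 0.966). In polysome RNA it measured 55.6, 43.4, 40.8, 41.2 and 37.8 CPM against 55.1, 56.8, 53.0, 65.8 and 46.1 CPM. There 4 of the 5 GFP LNA mice lay below all SNORA73 LNA mice and mouse 1 lay among them, and the log2 fold change was 0.34 (SE 0.14), with an unadjusted p of 0.0278 and an FDR of 0.314 in edgeR.

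The substrates behaved unlike each other. Irs1 (ENSMUSG00000055980, chr1:82233105-82291439), the founding member of the substrate family, measured 13.7, 15.1, 12.6, 19.3 and 8.90 CPM in total RNA of the GFP LNA mice and 17.9, 15.6, 11.3, 14.4 and 11.4 CPM in the SNORA73 LNA mice. Its group means were 13.9 ± 3.77 and 14.1 ± 2.84 CPM (SD, n = 5). In polysome RNA it measured 8.27, 8.87, 6.94, 13.4 and 5.56 CPM against 10.2, 11.03, 5.67, 14.9 and 8.86 CPM, and the groups overlapped. Its log2 fold change was 0.02 (SE 0.19) in total RNA and 0.24 (SE 0.27) in polysome RNA, and the edgeR FDR was 0.991 and 0.748. Mouse 9 had the lowest level of the 10 mice in both RNAs.

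Irs2 (ENSMUSG00000038894, chr8:10984681-11008929), the substrate whose transcription insulin itself restrains in liver, was the most variable member, with a coefficient of variation of 40.4% in total RNA. It measured 17.1, 10.8, 16.4, 15.8 and 5.94 CPM in total RNA of the GFP LNA mice and 7.88, 9.38, 16.2, 7.02 and 6.69 CPM in the SNORA73 LNA mice. Mouse 9 was thus the lowest of all, and mouse 10 lay among the higher GFP LNA mice. Over 10 mice the log2 fold change was -0.49 (SE 0.30, edgeR FDR 0.714). Without mice 9 and 10 the groups did not overlap, with means of 15.0 ± 2.90 and 7.74 ± 1.198 CPM (SD, n = 4), and the log2 fold change was -0.95 (SE 0.16, edgeR FDR 0.0267). Of all genes, 7.4% did not overlap in these 8 mice. Leaving out mouse 9 alone gave -0.69 (FDR 0.346), and leaving out mouse 10 alone gave -0.77 (FDR 0.385).

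The same split of Irs2 was nearly kept in polysome RNA. The GFP LNA mice measured 14.7, 7.003, 10.6, 14.8 and 4.69 CPM and the SNORA73 LNA mice 5.05, 9.19, 11.2, 8.09 and 4.54 CPM. Mouse 2 of the GFP LNA group fell below mice 6 and 11, so the groups overlapped with or without mice 9 and 10. The log2 fold change was -0.44 (SE 0.33, edgeR FDR 0.605) over 10 mice and -0.80 (SE 0.30, edgeR FDR 0.277) over 8.

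Phosphoinositide 3-kinase is built from a regulatory subunit that binds phosphorylated Irs proteins and a catalytic subunit that makes the lipid signal. The regulatory subunit mRNA Pik3r1 (ENSMUSG00000041417, chr13:101680761-101768217) had nearly equal means in total RNA, at 51.2 ± 2.85 and 51.1 ± 8.66 CPM (SD, n = 5), a log2 fold change of 0.00 (SE 0.12, edgeR FDR 0.999). The single values were 50.8, 49.1, 47.9, 53.6 and 54.5 CPM against 42.3, 42.2, 56.9, 61.5 and 52.8 CPM, and the SNORA73 LNA mice held both the 2 lowest and the 2 highest. In polysome RNA it measured 38.3, 28.7, 32.3, 33.9 and 32.6 CPM against 36.5, 36.5, 38.5, 58.6 and 39.0 CPM. Mouse 11 stood far above the other mice and raised the SNORA73 LNA mean to 41.8 ± 9.42 CPM, beside 33.2 ± 3.44 CPM for the GFP LNA (SD, n = 5). The remaining SNORA73 LNA mice had 36.5 to 39.0 CPM, and 4 of the 5 GFP LNA mice lay below all SNORA73 LNA mice. The log2 fold change was 0.33 (SE 0.15), with an unadjusted p of 0.0423 and an FDR of 0.356 in edgeR.

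The catalytic subunit mRNA Pik3ca (ENSMUSG00000027665, chr3:32397065-32466112) measured 34.0, 33.5, 30.3, 28.6 and 43.3 CPM in total RNA of the GFP LNA mice and 42.6, 34.7, 33.9, 55.0 and 38.5 CPM in the SNORA73 LNA mice. In polysome RNA it measured 25.2, 20.1, 20.8, 17.1 and 21.5 CPM against 27.97, 32.2, 23.3, 35.8 and 25.1 CPM. In both RNAs the SNORA73 LNA mice were mostly the higher ones, with overlap at 1 or more mice. This gave a log2 fold change of 0.27 (SE 0.15, edgeR FDR 0.669) in total RNA. In polysome RNA it was 0.46 (SE 0.15), with an unadjusted p of 0.00726 and an FDR of 0.218 in edgeR. Over 8 mice the groups did not overlap in total RNA, as was so for 7.4% of all genes, at a log2 fold change of 0.43 (edgeR FDR 0.230).

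The Akt mRNAs encode the kinases that carry the signal to Foxo and to glycogen and lipid synthesis. Akt2 (ENSMUSG00000004056, chr7:27591552-27640826), the form that dominates insulin action in liver, measured 50.5, 48.5, 49.3, 44.1 and 50.6 CPM against 48.3, 57.5, 51.3, 48.2 and 48.7 CPM in total RNA, a log2 fold change of 0.06 (SE 0.084, edgeR FDR 0.882). In polysome RNA it measured 56.2, 63.03, 65.3, 58.2 and 63.2 CPM against 66.2, 55.9, 67.3, 56.01 and 62.7 CPM, with a log2 fold change of 0.01 (SE 0.11, edgeR FDR 0.980). The groups overlapped in both RNAs. Akt1 (ENSMUSG00000001729, chr12:112653821-112674884) measured 12.4, 12.3, 17.2, 15.3 and 14.7 CPM against 13.95, 17.02, 19.4, 12.9 and 15.2 CPM in total RNA, and 17.9, 20.3, 23.4, 19.4 and 21.5 CPM against 18.6, 21.1, 25.6, 11.6 and 15.8 CPM in polysome RNA. The groups overlapped in both RNAs, with log2 fold changes of 0.13 (SE 0.13, edgeR FDR 0.842) and -0.14 (SE 0.18, edgeR FDR 0.774), the first of which was -0.02 with library totals.

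The Foxo factors are the nuclear end of the chain. Foxo1 (ENSMUSG00000044167, chr3:52268337-52350109), the main Foxo factor of hepatic glucose production, measured 55.0, 60.0, 49.8, 50.1 and 52.9 CPM in total RNA of the GFP LNA mice and 59.7, 63.2, 46.9, 72.6 and 68.5 CPM in the SNORA73 LNA mice. Mouse 10 was the lowest of all 10, and the other 4 SNORA73 LNA mice were at or above all but the highest GFP LNA mouse. Its polysome RNA levels were 57.1, 63.1, 52.1, 50.9 and 53.2 CPM against 58.9, 66.8, 54.5, 79.4 and 75.9 CPM, and mice 4 and 10 lay within the GFP LNA range. The log2 fold change was 0.22 (SE 0.12, edgeR FDR 0.662) in total RNA and 0.28 (SE 0.13, edgeR FDR 0.383) in polysome RNA. Over 8 mice the values were 0.30 (edgeR FDR 0.258) and 0.34 (edgeR FDR 0.312).

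Foxo3 (ENSMUSG00000048756, chr10:42181845-42276695), which shares most of its DNA targets with Foxo1, measured 17.3, 20.1, 18.2, 19.3 and 26.3 CPM in total RNA of the GFP LNA mice and 26.9, 25.6, 13.5, 24.6 and 25.5 CPM in the SNORA73 LNA mice. Mice 9 and 10 had again exchanged sides. Over 10 mice the log2 fold change was 0.20 (SE 0.18, edgeR FDR 0.809), and over 8 mice it was 0.45 (SE 0.085, edgeR FDR 0.0400) with means of 18.7 ± 1.23 and 25.6 ± 0.955 CPM (SD, n = 4). In polysome RNA, where the mice measured 14.8, 18.2, 17.9, 22.3 and 33.5 CPM against 27.6, 24.7, 15.7, 33.7 and 26.2 CPM, the 8 mice did not overlap, as was so for 4.85% of all genes that were higher. Its log2 fold change there was 0.26 (SE 0.23, edgeR FDR 0.669) over 10 mice and 0.62 (SE 0.15, edgeR FDR 0.123) over 8.

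**Figure D2:**
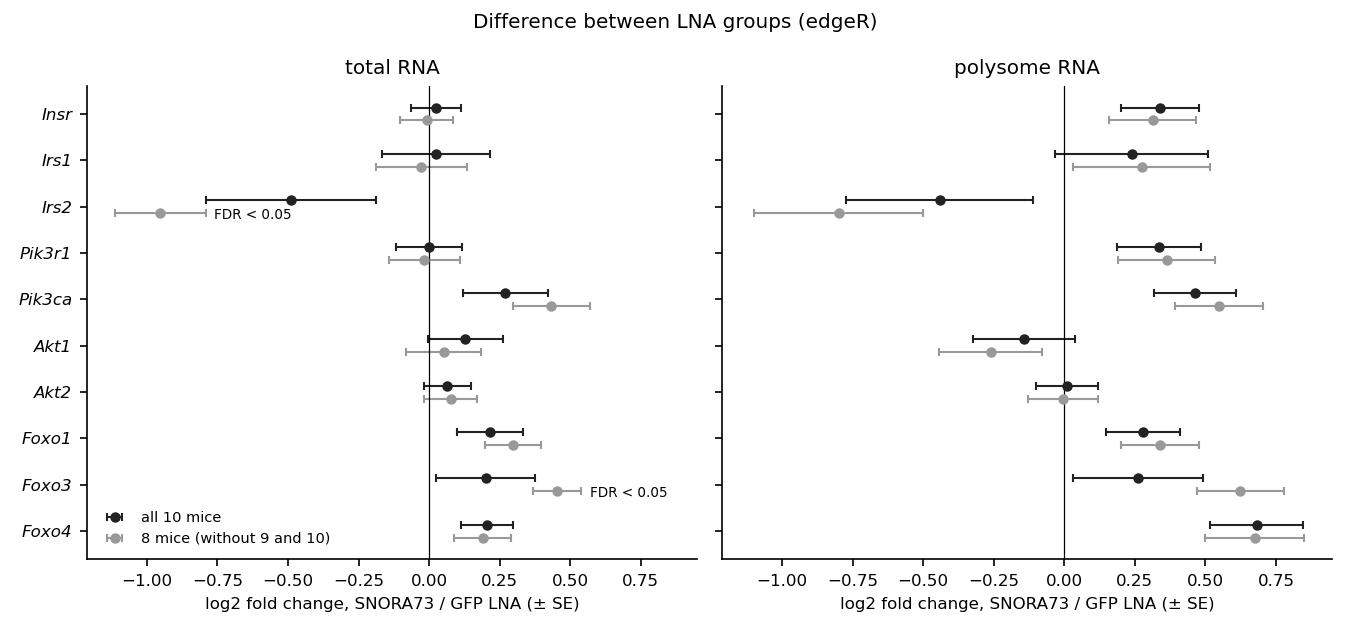
Log2 fold change between SNORA73 and GFP LNA mice (± SE from edgeR) for each member, in total RNA at left and polysome RNA at right, over 10 mice (black) and over 8 mice (grey). The labelled points, Irs2 at -0.95 and Foxo3 at 0.45 in total RNA of 8 mice, are those with an FDR under 0.05.

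Foxo4 (ENSMUSG00000042903, chrX:101254261-101260873), a smaller member of the family, was the only member whose groups did not overlap with all 10 mice kept, and this was so in polysome RNA. There the GFP LNA mice measured 32.1, 26.5, 22.6, 19.3 and 19.6 CPM and the SNORA73 LNA mice 36.2, 36.04, 33.1, 49.5 and 38.0 CPM. The means were 24.0 ± 5.36 and 38.6 ± 6.37 CPM (SD, n = 5), and 2.11% of all genes were higher without overlap. The log2 fold change was 0.68 (SE 0.16), with an unadjusted p of 0.00108 and an FDR of 0.132 in edgeR, so that it was not called. DESeq2, which called 2.4% of 11724 genes in polysome RNA, gave 0.69 with an adjusted p of 0.0132. Leaving out mice 9 and 10 left the estimate at 0.67 (edgeR FDR 0.137).

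In total RNA Foxo4 measured 23.3, 20.9, 19.8, 19.2 and 18.4 CPM against 23.4, 22.1, 22.2, 26.9 and 22.5 CPM, and GFP LNA mouse 1 lay within the SNORA73 LNA group. The log2 fold change was 0.21 (SE 0.092), with an unadjusted p of 0.0449 and an FDR of 0.557 in edgeR, and it was 0.06 when libraries were scaled by their totals. Of 5 markers of sinusoidal endothelial cells, each detected, 1 (Stab2) was called higher in total RNA, where 0.0303% of all genes were, 4 estimates were above 0 and 1 below, and 0 were called with library totals. In polysome RNA 0 were called over 10 mice and 1 (Stab2, log2 fold change 1.30, edgeR FDR 0.0126) over 8 mice, where 0.211% of all genes were called higher. Their summed level was 73.8 to 82.7 CPM in GFP LNA and 89.2 to 98.5 CPM in SNORA73 LNA polysome RNA, and 79.4 to 99.2 against 92.9 to 108 CPM in total RNA. Their part in the Foxo4 difference was not tested, and in liver tissue more cells of a type and more RNA per cell cannot be told apart.

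Irs2 and Foxo3 sorted the 10 mice in the same way. Mice 4, 6, 9, 11 and 12 had 5.94 to 9.38 CPM of Irs2 and 24.6 to 26.9 CPM of Foxo3 in total RNA, whereas mice 1, 2, 3, 8 and 10 had 10.8 to 17.1 CPM of Irs2 and 13.5 to 20.1 CPM of Foxo3. The first set holds 4 of the 5 SNORA73 LNA mice and mouse 9, and the second 4 of the 5 GFP LNA mice and mouse 10. For Foxo3 the same sets were apart in polysome RNA, at 24.7 to 33.7 CPM and 14.8 to 22.3 CPM. For Irs2 the sets overlapped in polysome RNA, at 4.54 to 9.19 CPM and 7.003 to 14.8 CPM. This is a description of 10 mice, and both genes were looked at after their values were known.

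**Figure D3:**
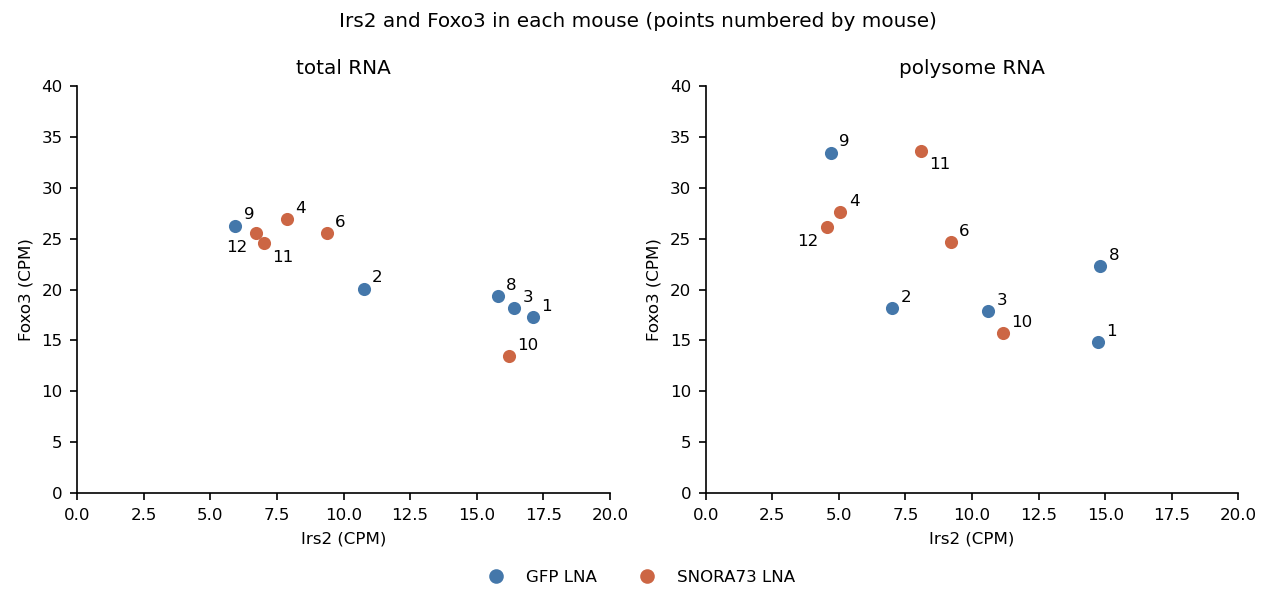
Foxo3 against Irs2 (CPM) in total RNA at left and polysome RNA at right. Each point is 1 mouse with its number, coloured by LNA. In total RNA mouse 9 (Irs2 5.94, Foxo3 26.3 CPM) lies with SNORA73 LNA mice 4, 6, 11 and 12, and mouse 10 (Irs2 16.2, Foxo3 13.5 CPM) with GFP LNA mice.

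By a fixed rule, the genes most like Irs2 over the 10 total RNA libraries, among 8285 genes of at least 5 CPM, were Gbp6 (Pearson r 0.91), Cdkn1a (0.90), Ifi35 (0.89), Gart (0.89) and Sec24d (0.89). Cdkn1a encodes the cell cycle inhibitor p21, and Gart an enzyme of purine synthesis. Their correlations with Irs2 in polysome RNA of the same mice were 0.68, 0.66, 0.53, 0.11 and 0.56. Those most like Foxo3 were Hgd (0.94), an enzyme of tyrosine breakdown, Abca6 (0.93), Mtln (0.92), Ube2h (0.92) and Gstp2 (0.92), with 0.82, 0.81, 0.32, 0.57 and 0.95 in polysome RNA. The libraries share the LNA groups and the position of mice 9 and 10, and the values are descriptions.

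The second comparison asked how strongly each mRNA was represented in polysomes relative to other genes, with total and polysome RNA of both LNA groups in 1 model. The scaling removes any shift shared by most genes, so a log2 ratio of 0 marks the typical gene and not equal ribosome loading. The receptor Insr, the substrate Irs1 and the kinase subunits Pik3r1 and Pik3ca were lower in polysome than in total RNA, whereas Akt1, Akt2 and Foxo4 were higher. In edgeR 7 of the 10 members passed an FDR of 0.05, 3 higher and 4 lower. Since 55.7% of all genes passed (28.7% higher and 27% lower), this count is not particular to the members.

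Among the lower mRNAs, the log2 ratio of polysome to total RNA was -0.53 for Insr (SE 0.086, edgeR FDR 1.86e-05). It was -0.63 for Irs1 (SE 0.17, edgeR FDR 0.00341), -0.63 for Pik3ca (SE 0.11, edgeR FDR 3.27e-05) and -0.49 for Pik3r1 (SE 0.10, edgeR FDR 0.000247). In each of these 4 the ratio per mouse was below 0 in 10 of 10 mice, though only at -0.0033 for Irs1 in mouse 11. For these ratios all 20 libraries were scaled together. The CPM levels given above were scaled within each RNA, so their quotients can differ slightly and fall on the other side of 0. Irs2 was below 0 in 9 of 10 mice and not called at -0.36 (SE 0.23, edgeR FDR 0.199). With the mouse as a replicate block, which removes the differences between mice, it was called at -0.38 (SE 0.089, edgeR FDR 0.00133), and 8 members and 65.3% of all genes passed.

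Among the higher mRNAs, the log2 ratio was 0.34 for Akt1 (SE 0.12, edgeR FDR 0.0161), 0.27 for Akt2 (SE 0.060, edgeR FDR 0.000625) and 0.44 for Foxo4 (SE 0.11, edgeR FDR 0.00126). Foxo1 and Foxo3 were near the typical gene, at 0.04 (SE 0.085, edgeR FDR 0.715) and 0.07 (SE 0.15, edgeR FDR 0.717). Without mouse 2 the value for Akt1 was 0.29 with an edgeR FDR of 0.0583.

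**Figure D4:**
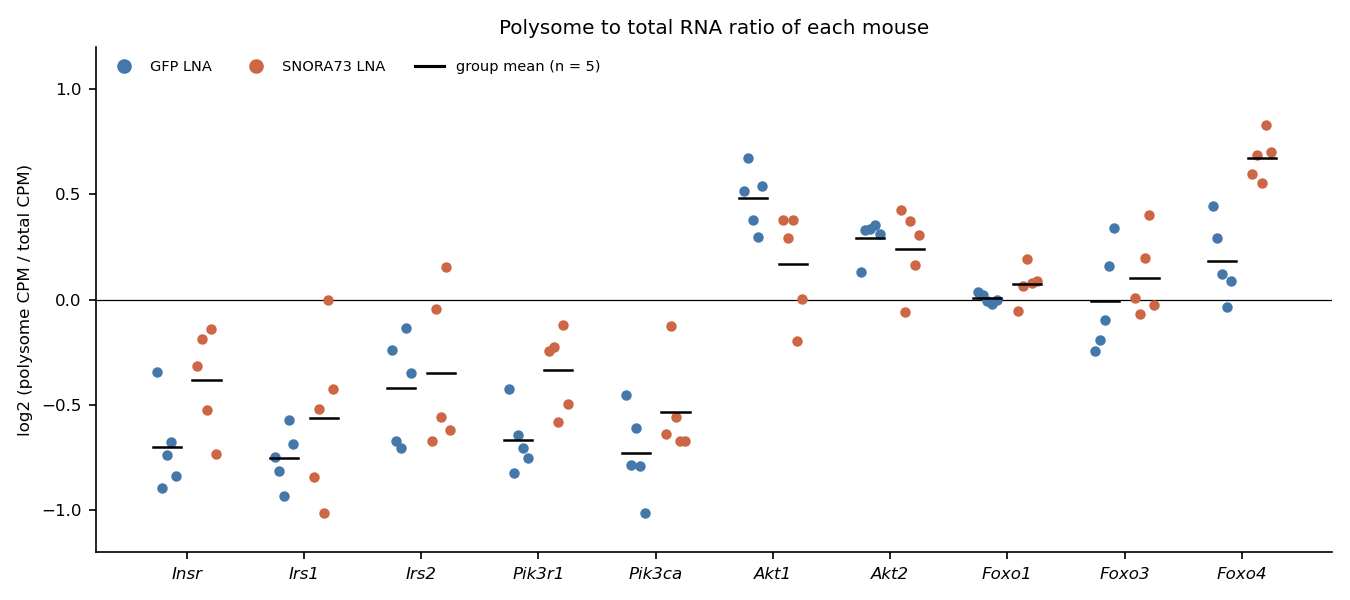
Log2 of polysome over total CPM for each member, with all 20 libraries scaled together, 1 point per mouse and a black line for the mean of 5 mice. Values under the zero line are mRNAs with less signal in polysome than in total RNA, relative to the typical gene after scaling. Insr, Irs1, Pik3r1 and Pik3ca lie below 0 in all 10 mice, and Foxo4 is the member whose LNA groups do not overlap.

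The third comparison asked whether polysome loading relative to other genes differed between the LNA groups. The paper reported that ribosomes moved toward polysomes in SNORA73 LNA livers. A change of loading shared by most genes is removed by the scaling and cannot be seen here. With LNA and RNA in an interaction model, 0 of 10 members and 0.00725% of 13795 genes passed an FDR of 0.05 in edgeR, with 1 member (Foxo4) and 2.91% of all genes at an unadjusted p under 0.05. The Foxo4 interaction was 0.48 on the log2 scale (SE 0.19), with an unadjusted p of 0.0214 and an FDR of 1.0. With the mouse as a replicate block it was 0.49 (SE 0.115), with an unadjusted p of 0.000725 and an FDR of 0.294. In that fit Insr, Pik3r1 and Akt1 also had an unadjusted p under 0.05, which 8.03% of all genes had, and 0.00725% of all genes passed the FDR.

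The ratio per mouse showed the same order. For Foxo4 the log2 ratio was 0.44, 0.29, 0.12, -0.035 and 0.090 against 0.60, 0.69, 0.55, 0.83 and 0.70, all SNORA73 LNA mice lying above all GFP LNA mice, and 0.859% of all genes were higher without overlap. The means were 0.18 and 0.67 and differed by 0.49 (two-sided exact permutation test, unadjusted p = 0.00794, the smallest that 5 against 5 mice can give). For Pik3r1 the single values were -0.43, -0.82, -0.64, -0.70 and -0.75 against -0.24, -0.22, -0.58, -0.12 and -0.49. The groups overlapped, the means were -0.67 and -0.33, a difference of 0.34 (exact permutation p = 0.0317). Akt1 went the other way, at 0.52, 0.68, 0.38, 0.30 and 0.54 against 0.38, 0.29, 0.38, -0.20 and 0.0038. Its means were 0.48 and 0.17, a difference of -0.31 (exact permutation p = 0.0476). Insr, at -0.70 and -0.38, had an exact permutation p of 0.0714, and the other 6 members had p of 0.119 or more. An exact p under 0.05 was found in 3 members and in 8.71% of 13037 genes. Over 8 mice it was found in Foxo4 alone (difference 0.50, exact permutation p = 0.0286, the smallest possible) and in 4.4% of all genes.

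Genes around the members were read from 4 lists of genes of known function, chosen with earlier results of these data known. Pck1, G6pc and Ppargc1a stand both in the list of Foxo-induced genes and in that of cAMP and glucagon response genes. Of 28 further genes of insulin signalling (other receptors and adaptors, phosphatases and kinase subunits), 24 passed the filter on low counts in total RNA, 0 were called, and the median log2 fold change was 0.08 in total and 0.01 in polysome RNA. The 3 with the largest fold change in total RNA were Pik3r3 (0.61, SE 0.31), a regulatory subunit related to Pik3r1, Ptpn1 (0.52, SE 0.26), the phosphatase that switches the receptor off, and Sh2b2 (0.50, SE 0.28), an adaptor of the receptor, with an edgeR FDR of 0.636, 0.629 and 0.674. For Ptpn1, mouse 10 had 22.8 CPM in total RNA where the other 9 mice had 7.17 to 10.55 CPM, and the fold change was 0.23 over 8 mice. Among genes of this list, Phlpp2 in total RNA and Igf1r in polysome RNA had groups that did not overlap over 10 mice, as 0.705% of all genes that were lower in total and 2.11% that were higher in polysome RNA had, and both were picked after their values were seen. Phlpp2, a phosphatase that acts on Akt, ranged from 1.999 to 2.32 CPM in GFP LNA and from 1.45 to 1.81 CPM in SNORA73 LNA total RNA, with a log2 fold change of -0.36 (SE 0.14, edgeR FDR 0.494). Igf1r, the closest relative of Insr, ranged from 1.0 to 1.72 CPM in GFP LNA and from 1.76 to 2.88 CPM in SNORA73 LNA polysome RNA, with a log2 fold change of 0.71 (SE 0.25, edgeR FDR 0.268).

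Of 16 genes that Foxo factors induce in liver, 0 were called in either RNA, and 3 were lower at an unadjusted p under 0.05 in each RNA (Igfbp1, Sesn1 and Ccng2 in total and Igfbp1, Pdk4 and Sesn1 in polysome RNA), where 3.69% of all genes were lower in total and 5.32% in polysome RNA. Over 8 mice 2 were lower (Pdk4 and Ccng2) and 1 higher (Klf15) in total RNA, where 5.05% and 7.04% of all genes were, and 1 was lower (Pdk4) and 1 higher (Ppargc1a) in polysome RNA, where 4.95% and 9.04% were. With library totals 5 and 4 of the 16 were lower, where 14.3% and 13.8% of all genes were. Igfbp1, a secreted binding protein of insulin-like growth factors, measured 71.1, 44.9, 138, 146 and 114 CPM in total RNA of the GFP LNA mice and 27.7, 100.4, 31.5, 60.6 and 19.4 CPM in the SNORA73 LNA mice. The groups overlapped through mice 1, 2, 6 and 11, with a log2 fold change of -1.10 (SE 0.44), an unadjusted p of 0.0268 and an FDR of 0.505 in edgeR. In polysome RNA the fold change was -1.16 (SE 0.42, edgeR FDR 0.269). Pdk4, a brake on glucose oxidation, was at -0.81 (SE 0.37, edgeR FDR 0.579), and Ccng2, a cyclin-like inhibitor of growth, at -0.44 (SE 0.18, edgeR FDR 0.513). Pck1 and G6pc, the enzymes of gluconeogenesis, were at 0.26 (SE 0.20, edgeR FDR 0.783) and -0.26 (SE 0.43, edgeR FDR 0.912).

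Of 10 lipogenic genes that insulin induces, 9 passed the filter and 0 were called. The median log2 fold change in total RNA was -0.21 over 10 mice and 0.16 over 8 mice. Mouse 9 had 272 CPM of Fasn (fatty acid synthase) in total RNA, where the other GFP LNA mice had 46.6 to 110 CPM and the SNORA73 LNA mice 52.3 to 133 CPM. Fasn was at -0.47 (SE 0.44) over 10 mice and 0.21 (SE 0.30) over 8. Acaca (acetyl-CoA carboxylase, -0.14 over 8 mice) was at -0.36 (SE 0.25) and Srebf1, the lipogenic transcription factor, at 0.14 (SE 0.19, and 0.29 over 8 mice), with an edgeR FDR of 0.747 and 0.882.

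**Figure D5:**
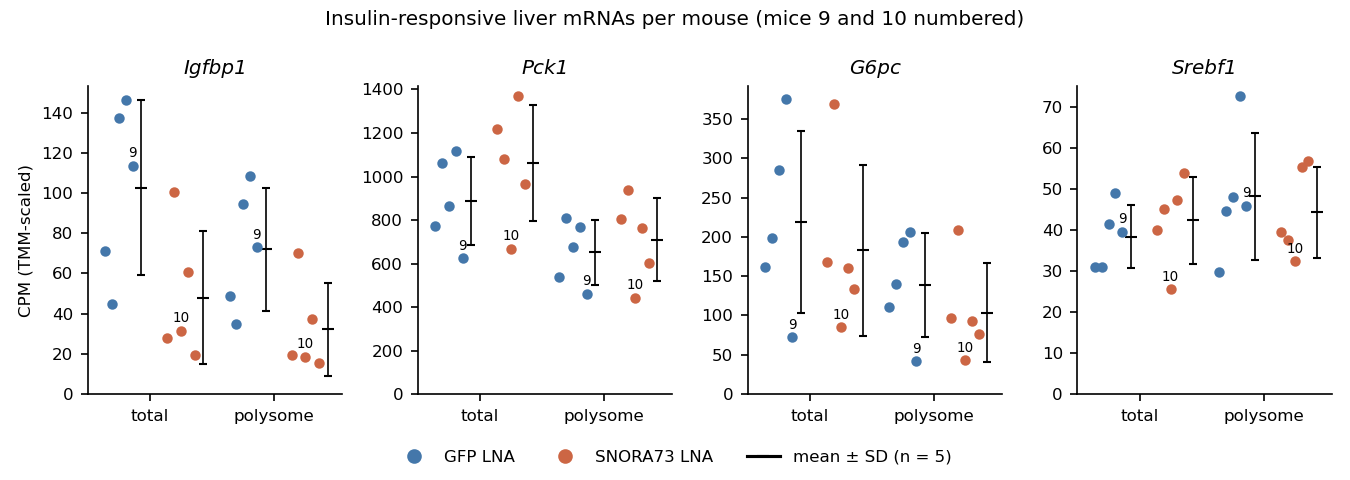
Level (CPM, linear axis from 0) of the insulin-responsive liver mRNAs Igfbp1, Pck1, G6pc and Srebf1 in total and polysome RNA, 1 point per mouse with the mean ± SD of 5 mice. Igfbp1 is mostly lower in SNORA73 LNA mice with overlap at mice 1, 2, 6 and 11.

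Of 10 genes that cAMP and glucagon induce, 0 were called. Nr4a1 and Gadd45b, early response genes, were at -1.35 (SE 0.58, edgeR FDR 0.538) and -0.64 (SE 0.58, edgeR FDR 0.814), and Sds, which breaks down serine, was at 0.62 (SE 0.23, edgeR FDR 0.484). Gadd45b was low, at 0.150 to 1.41 CPM in total RNA. For Sds, SNORA73 LNA mouse 12 had 150.7 CPM in total RNA. The other SNORA73 LNA mice had 59.0 to 85.6 CPM and the GFP LNA mice 47.2 to 69.3 CPM. Nr4a1 had 3.61 and 5.43 CPM in total RNA of GFP LNA mice 1 and 9 and 0.354 to 1.404 CPM in the other 8 mice, and over 8 mice without mice 9 and 10 its fold change was -0.65 (SE 0.53, edgeR FDR 0.689). Between polysome and total RNA, 9 of the 16 genes that Foxo factors induce were called lower and 0 higher, where 27% and 28.7% of all genes were, at a median log2 ratio of -0.56 beside 0.03 for all genes. Over 8 mice 11 of the 16 were called lower. Among the 25 further insulin signalling genes tested there, 5 were higher and 8 lower, against the same shares of all genes.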

How the data were processed

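The authors trimmed reads with fastp, removed reads aligned to rRNA, quantified transcripts with kallisto and summed them to genes, and deposited estimated counts per gene for 20 libraries (1 table, 0 columns without a sample). Since kallisto shares reads among compatible transcripts, counts of close paralogs are less certain. No transcript lengths were at hand, so levels were not compared between genes. Estimated counts were rounded, and genes above 0.5 CPM in at least 4 libraries entered edgeR 4.0.16 (quasi-likelihood test, R 4.3.3) after TMM scaling, with Benjamini-Hochberg adjustment over all genes tested. Symbols were matched for 51903 of 53028 identifiers.

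Total and polysome RNA were fitted apart for the LNA comparison and together for polysome loading. Printed CPM levels were scaled within each RNA, and ratios per mouse over all 20 libraries. Members and lists were chosen with earlier results of these data known. Named beyond the members were the 3 genes of each list with the largest fold change in total RNA, any list gene called, Igfbp1, Pck1, G6pc and Srebf1, and the 5 genes most correlated with Irs2 and Foxo3 (log2 CPM, prior count 2). Phlpp2, Igf1r, Stab2, Sesn1, Klf15 and Ppargc1a were named outside this rule after their values were seen. One item under this rule is not reported here. The choice without mice 9 and 10 was found by fitting the 25 possible pairs with limma-voom and comparing with the fold changes of the study's supplementary table, members left out (median absolute difference 0.00709 against 0.0343 for the next pair in total RNA, and 0.00327 against 0.0521 in polysome RNA). Total and polysome libraries with the same number come from the same mouse, and their deviations from the group means correlated at 0.126 to 0.579, with the same mouse as the best match for 9 of 10 mice and not for mouse 6 (0.126). On simulated counts with changes of 1 on the log2 scale, the test recovered 81.5% of 200 genes in total RNA, 60.5% of 200 in polysome RNA and 26.3% of 198 in the interaction. It also called 4, 6 and 3 unchanged genes. Genes were only raised, and libraries of 1 mouse were drawn independently. The members' LNA differences were smaller than 1, and recovery at their size was not simulated. Alternatives were limma-voom 3.58.1, DESeq2 1.42.0, its size factors, library totals, other filters, each mouse left out, the 8 mice and the replicate block.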

Additional observations from a re-analysis of the deposited data

Results flagged for a closer look

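Of 60 groups of 5 values checked for a sample far from the others, 6 had one. The rule's rate of about 1 in 20 groups holds for independent groups. These groups share the same mice, and the ratios reuse the levels. No share over all genes was taken, so the 6 cannot be read as an excess in the members. Mouse 10 of the SNORA73 LNA group stood apart from the other 4 in total RNA for Irs2 (16.2 CPM, above) and for Foxo3 (13.5 CPM, below). Mouse 11 of the same group was the highest for Foxo4 in total RNA (26.9 CPM) and for Pik3r1 in polysome RNA (58.6 CPM). In the log2 ratio of polysome to total RNA, SNORA73 LNA mouse 6 stood above its group for Pik3ca (-0.12), and GFP LNA mouse 1 below its group for Akt2 (0.13).

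The polysome to total ratio differed between the LNA groups in 3 members by a two-sided exact permutation test of the ratio per mouse. The difference, SNORA73 minus GFP LNA, was 0.49 for Foxo4 (exact p = 0.00794), 0.34 for Pik3r1 (p = 0.0317) and -0.31 for Akt1 (p = 0.0476), unadjusted over 10 members, where 8.71% of 13037 genes had an exact p under 0.05. Over 8 mice the exact permutation p was 0.0286 for Foxo4, 0.0571 for Pik3r1 and 0.0857 for Akt1. None of them had an edgeR FDR under 0.05 in the interaction. Without mouse 2, 8 or 9 Pik3r1 had an exact permutation p of 0.0556, and Akt1 had a p above 0.05 without mouse 1, 2, 3, 6, 9, 11 or 12, up to 0.127 without mouse 2, and an exact p of 0.0794 with library totals.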

How the results depend on the processing

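The members' calls depended on mice 9 and 10 and on the tool. Of the members, 2 were called in total RNA over 8 mice, in edgeR and in limma-voom, and 1 (Foxo4) in polysome RNA by DESeq2. Over all genes, the 4 calls in total RNA became 97 over 8 mice, 102 with limma-voom over 8 mice, 75 with DESeq2, 13 with no filter, and 2 with library totals or with CPM above 1 in every library. They ranged from 1 to 59 with 1 mouse left out, the 59 without mouse 9. The 2 calls in polysome RNA became 31 over 8 mice or with CPM above 1, 28 with limma-voom over 8 mice, 281 with DESeq2, 72 with no filter and 0 with library totals, and 0 to 17 with 1 mouse left out, the 17 without mouse 9. The 1 interaction call became 0 over 8 mice (edgeR, limma-voom and replicate block), with limma-voom over 10 mice and with CPM above 1, and 7 with DESeq2. Members with an exact p under 0.05 in the ratio per mouse numbered 1 over 8 mice and 1 to 4 with 1 mouse left out. The causes were not tested.

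Between polysome and total RNA, 6 to 8 members were called in every setting. Of all genes, 55.7% passed there over 10 mice and 65.3% with the replicate block. With no filter 7757 of 29675 genes passed, and with CPM above 1 in every library 6398 of 10029. The count is thus not particular to the members. With the mouse as a replicate block, 8 members were called and Irs2 reached -0.38. No paired analysis was possible between the LNA groups because they share no mouse numbers.

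Library totals shifted the median of all genes by -0.14 in total and -0.15 in polysome RNA. They turned the total RNA estimates of Insr (-0.12), Irs1 (-0.11), Akt1 (-0.021) and Akt2 (-0.080) and the polysome estimate of Akt2 (-0.15). Over 8 mice, Insr (-0.0087) and Irs1 (-0.027) in total RNA and Akt2 in polysome RNA (-0.0029) turned, as they did with limma-voom (-0.0061, -0.027 and -0.0061), and so did Foxo3 between polysome and total RNA (-0.014, -0.026 with limma-voom and -0.024 with the replicate block). With no filter, Irs1 in total RNA (-9.89e-05) and Akt2 in polysome RNA (-0.0063) turned, and with CPM above 1 Foxo1 (-0.029) and Foxo3 (-0.0010) between polysome and total RNA. With 1 mouse left out, estimates near 0 crossed it for Insr (-0.0076 to 0.071), Irs1 (-0.11 to 0.16) and Pik3r1 (-0.082 to 0.062) in total RNA, for Akt1 (-0.28 to 0.0013) and Akt2 (-0.019 to 0.058) in polysome RNA, for Irs2 (-0.041 to 0.17), Akt2 (-0.096 to 0.028) and Foxo3 (-0.034 to 0.18) in the interaction, and for the ratio per mouse of Irs2 (-0.055 to 0.15) and Akt2 (-0.097 to 0.024). No called value changed direction.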
